A study of Homo sapiens with 2 samples.

Results

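The mismatch repair genes examined here were MSH3, MSH6, MLH3, PMS1, PMS2 and EXO1, chosen by gene name, and all 6 were found once among the 36953 genes of the deposited tables. They were compared between 2 related human colorectal cancer lines, with 1 polyadenylated RNA library from each. MIP/5FU is a clone of MIP101 that was selected by passage in rising doses of 5-fluorouracil (5-FU), a drug that blocks thymidylate synthesis and enters RNA and DNA. It is kept in 5 µM 5-FU and has a 10-fold higher IC50 for the drug. MIP101 is its drug-sensitive parent, a line from a liver metastasis. Both cultures grew for about 48 h without drug before RNA was taken, so drug exposure itself was not compared. Since the resistant line is 1 clone, resistance and any other property of that clone cannot be told apart.

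Mismatch repair removes base mismatches and small loops left behind by DNA polymerase. MutS-type proteins such as MSH6 and MSH3 recognise the error, MutL-type proteins such as PMS2, MLH3 and PMS1 relay or cut, and the exonuclease EXO1 removes the faulty strand before it is copied again. Loss of the pathway is common in a class of colorectal cancers, which then gather length changes in short DNA repeats, and the pathway also handles DNA that contains fluorouracil.

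The gene tables held 109693681 reads for MIP/5FU and 200141071 reads for MIP101, and each ratio below is log2 of a gene's share of these reads in MIP/5FU over its share in MIP101. The 9 epithelial marker genes summed to 8374 RPM (reads per 1000000 gene reads) in MIP/5FU and 7519 RPM in MIP101, with 7 of the 9 above 1 RPM in both. KRT8 and KRT18 carried most of that sum, and other epithelial genes differed between the lines: KRT20 had 19.4 RPM in MIP/5FU and 2.86 RPM in MIP101, VIL1 had 53.4 RPM in MIP/5FU and 125 RPM in MIP101, and CDH1 had 540 RPM in MIP/5FU and 746 RPM in MIP101. The part of these differences in the results below was not tested. The 5 blood markers summed to 2.43 RPM in MIP/5FU and 1.59 RPM in MIP101, and the 5 endothelial and fibroblast markers to 0.374 RPM in MIP/5FU and 0.495 RPM in MIP101. The 3 hepatocyte markers summed to 4.52 RPM in MIP/5FU and 7.06 RPM in MIP101, and CDH5, DCN and APOA1 had 0 reads in both lines. With 1 library per line there is no replicate check, so no p-value is given. Intervals are exact and cover counting error only, and they are too narrow where PCR copied molecules.

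No member of the group differed by 2-fold between the lines, in either direction. MSH6 was 1.37-fold higher in MIP/5FU (95% interval 1.31 to 1.43), and the other 5 genes were lower in MIP/5FU by factors between 1.03 and 1.22, although junction reads alone put MSH3 and PMS2 above 0. Over the 15382 genes with at least 100 reads in both libraries together, 2.53% were at least 2-fold higher and 3.09% at least 2-fold lower in MIP/5FU, each with an interval that excluded no difference. At 1.5-fold the share was 16.8% in either direction, and again no member was among them. In these bulk libraries, fewer cells that express a gene and less of its RNA per cell cannot be told apart.

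The promoters of both MutS-type genes and of PMS1 are shown because MSH6 stood apart in ratio from MSH3 and because PMS1 shares its start region with another gene. Each window runs from 250 bases before to 50 bases after a RefSeq start on GRCh38.p14, 5′ to 3′ on the gene's strand. All 6 genes had a window, and where RefSeq lists several, as for MSH6, the one listed first was used. Capitals mark matches on either strand to the GC box, spelled GGGCGG, to the CCAAT box, spelled as in its name, or to TTTNGCGC, a form of the E2F site.
MSH6, chr2:47782895-47783194, plus strand: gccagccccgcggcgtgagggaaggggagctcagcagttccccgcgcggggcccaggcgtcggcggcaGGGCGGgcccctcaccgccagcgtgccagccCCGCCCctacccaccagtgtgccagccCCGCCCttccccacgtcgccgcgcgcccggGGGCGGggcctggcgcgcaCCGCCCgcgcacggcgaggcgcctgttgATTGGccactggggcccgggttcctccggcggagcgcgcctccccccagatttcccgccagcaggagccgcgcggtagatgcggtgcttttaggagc
MSH3, chr5:80654402-80654701, plus strand: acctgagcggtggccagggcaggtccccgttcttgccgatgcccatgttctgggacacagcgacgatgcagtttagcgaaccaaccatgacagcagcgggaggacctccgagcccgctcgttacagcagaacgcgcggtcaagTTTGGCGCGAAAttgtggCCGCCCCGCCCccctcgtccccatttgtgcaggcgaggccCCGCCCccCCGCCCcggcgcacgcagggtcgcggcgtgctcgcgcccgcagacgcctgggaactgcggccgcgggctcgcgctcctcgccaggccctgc
PMS1, chr2:189784200-189784499, plus strand: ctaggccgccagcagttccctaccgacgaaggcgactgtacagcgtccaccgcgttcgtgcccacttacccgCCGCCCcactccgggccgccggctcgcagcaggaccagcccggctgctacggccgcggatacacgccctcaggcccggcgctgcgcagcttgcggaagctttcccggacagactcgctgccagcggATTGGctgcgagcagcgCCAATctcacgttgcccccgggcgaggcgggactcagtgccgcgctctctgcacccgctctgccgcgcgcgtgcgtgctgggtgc
The MSH6 window held 5 GC boxes and 1 CCAAT box, with overlapping matches counted separately, and the MSH3 window held 4 GC boxes and 2 E2F forms. The 2 E2F forms of MSH3 overlap each other on opposite strands. The PMS1 window held 1 GC box and 2 CCAAT boxes. Of the members not shown, PMS2 had 2 GC boxes and 3 CCAAT boxes, EXO1 had 1 GC box and 1 E2F form, and MLH3 had no match to any of these. TATAAA was in none of the 6 windows. Among 35116 RefSeq windows of this length, 45.0% held the GC box, 34.6% the CCAAT box, 1.79% the E2F form and 11.5% TATAAA. These are matches of letters and do not show binding.

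Of the MutS-type genes, MSH6 took a larger share of reads in MIP/5FU than in MIP101 and MSH3 took nearly the same share in both. Reads covered 99.05% of MSH6 bases in MIP/5FU and 99.07% in MIP101, and all bases of MSH3 in both. MSH6 (ENSG00000116062, hg18 chr2:47863725-47887588), which recognises single mismatches and short loops, had 3711 reads in MIP/5FU and 4934 in MIP101. That is 33.8 RPM in MIP/5FU and 24.7 RPM in MIP101, a log2 ratio of 0.46 (95% interval 0.39 to 0.52). It was higher in MIP/5FU, and 13.3% of all tested genes had a ratio at least as high. MSH3 (ENSG00000113318, hg18 chr5:79986050-80208387), which recognises longer loops, had 6107 reads in MIP/5FU and 11503 in MIP101, or 55.7 RPM in MIP/5FU and 57.5 RPM in MIP101. Its log2 ratio was -0.05 (-0.09 to -0.00), close to the median of all tested genes, 0.03. The difference between the ratios of MSH3 and MSH6 was -0.50 on the log2 scale (-0.58 to -0.43). On the authors' normalized coverage per base, which allows genes of different length to be compared, MSH3 stood 1.53 times as high as MSH6 in MIP/5FU and 2.17 times as high in MIP101.

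Among the MutL-type genes, all 3 had log2 ratios of gene reads below 0. PMS2 (ENSG00000122512, hg18 chr7:5979396-6015263) encodes the endonuclease subunit of the main MutL complex. It had 4337 reads in MIP/5FU and 8626 in MIP101, a log2 ratio of -0.12 (-0.18 to -0.07). MLH3 (ENSG00000119684, hg18 chr14:74550220-74587988), known mostly for its part in meiotic crossing-over and in repeat expansion, had 3183 reads in MIP/5FU and 6362 in MIP101, and its log2 ratio was -0.13 (-0.19 to -0.07). PMS1 (ENSG00000064933, hg18 chr2:190357355-190450599) encodes a MutL protein whose own role in repair is minor. It had 4937 reads in MIP/5FU and 10744 in MIP101, a log2 ratio of -0.25 (-0.30 to -0.21). The ratio of PMS1 minus that of PMS2 was -0.13 (-0.20 to -0.06), and by junction reads -0.19 (-0.41 to 0.03), where the interval includes 0. The ratio of MLH3 minus that of PMS2 was -0.01 (-0.09 to 0.07), and by junction reads -0.31 (-0.62 to -0.01), where it excludes 0.

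EXO1 (ENSG00000174371, hg18 chr1:240078158-240119670) had 6797 reads in MIP/5FU and 15121 in MIP101, or 61.96 RPM in MIP/5FU and 75.55 RPM in MIP101. Its log2 ratio of -0.29 (-0.33 to -0.24) was the lowest of the 6, and 20.6% of all tested genes had a ratio at least as low. The ratio of PMS1 minus that of EXO1 was 0.03 (-0.03 to 0.10), an interval that includes 0. Of the 15 pairs of members, 13 had an interval that excluded equal ratios, and all 5 pairs with MSH6 were among them. When only reads across exon junctions were used, 10 of the 15 pairs did, again with all 5 pairs of MSH6. These pair intervals cover counting error only. The share of such pairs among all tested genes was not computed, so neither count sets the members apart from other genes.

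By coverage of the whole gene, the order of the 6 levels was the same in both lines. On normalized coverage per base, EXO1 was highest with 164 in MIP/5FU and 204 in MIP101, followed by PMS2 with 112 in MIP/5FU and 124 in MIP101. MSH3 had 103 in MIP/5FU and 108 in MIP101, and PMS1 had 85.0 in MIP/5FU and 103 in MIP101. MSH6 had 67.2 in MIP/5FU and 49.8 in MIP101, and MLH3 was lowest with 31.5 in MIP/5FU and 35.1 in MIP101. At this measure, neighbours in the order were separated by more than counting error in each line. The closest pair, MSH3 and PMS1 in MIP101, had 95% intervals of 106 to 110 for MSH3 and 101 to 105 for PMS1. The order depends on the measure, however. By the median over tested exon regions, PMS1 stood above MSH3 in both lines. PMS1 then had 116 in MIP/5FU and 148 in MIP101, and MSH3 had 111 in MIP/5FU and 116 in MIP101. By that median PMS2 also had 148 in MIP101, and MLH3 had 51.8 there beside 51.6 for MSH6. By whole-gene coverage EXO1 exceeded 70.9% of tested protein-coding genes in MIP/5FU and 75.3% in MIP101, and MLH3 exceeded 33.8% in MIP/5FU and 35.4% in MIP101.

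**Figure D1:**
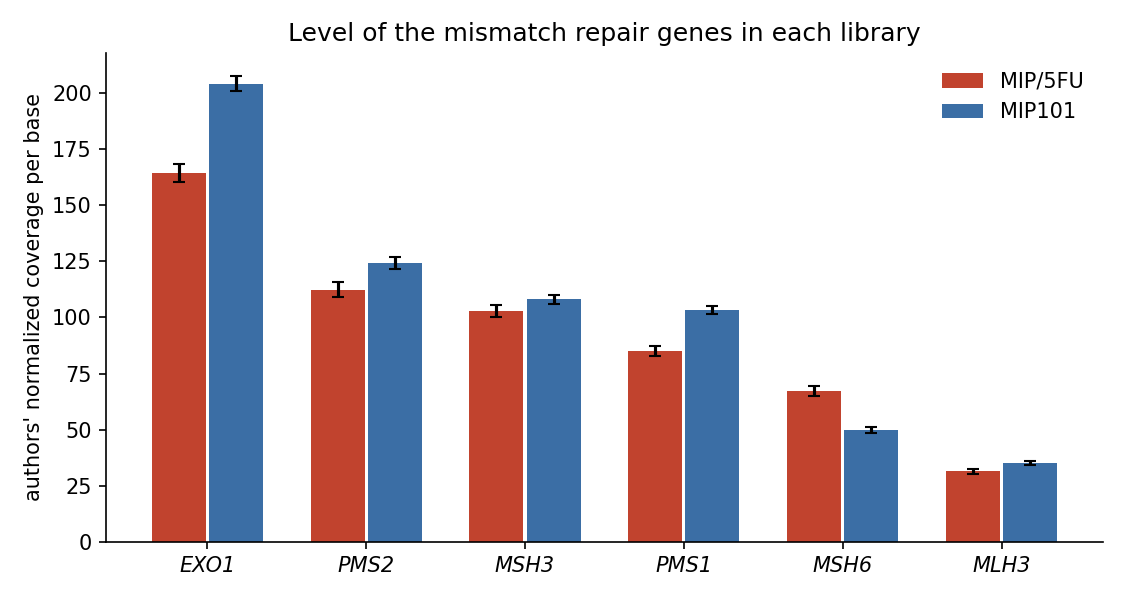
Authors' normalized coverage per base (y axis) of the 6 genes in MIP/5FU (red, left bars) and MIP101 (blue, right bars), with 1 library per line. Error bars are exact 95% Poisson intervals of the read counts. MSH6 is the only gene of the 6 with the higher bar in MIP/5FU (67.2 in MIP/5FU, 49.8 in MIP101), and EXO1 has the highest bars (164 in MIP/5FU, 204 in MIP101).

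The junction reads, a separate set of features in the tables, gave the same side for 4 of the 6 genes. MSH6 had 199 junction reads in MIP/5FU and 264 in MIP101, a log2 ratio of 0.53 (0.26 to 0.80). EXO1 had 842 in MIP/5FU and 1998 in MIP101 (-0.31, -0.43 to -0.19), and PMS1 had 533 in MIP/5FU and 1143 in MIP101 (-0.16, -0.32 to -0.01). MLH3 had 173 in MIP/5FU and 405 in MIP101 (-0.29, -0.56 to -0.03). For MSH3 and PMS2 the sign turned: MSH3 had 981 junction reads in MIP/5FU and 1757 in MIP101 (0.10, -0.02 to 0.21), and PMS2 had 508 in MIP/5FU and 957 in MIP101 (0.024, -0.14 to 0.18). Both of those intervals include 0, so no direction can be given for these 2 genes.

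Other genes that act in mismatch repair or in the replication steps around it were counted as a list of 22. These were PCNA, the RFC clamp loader, the RPA single-strand binding proteins, DNA polymerase delta, LIG1, SSBP1, HMGB1, MSH4, MSH5, MBD4, SETD2 and FAN1, listed under its older symbol MTMR15. All 22 had enough reads, 11 had log2 ratios above 0 and 11 below, and their median was -0.02 beside 0.03 for all tested genes. RPA4, an alternative form of an RPA subunit, was the only one counted at 2-fold, with 90 reads in MIP/5FU and 82 in MIP101 (log2 ratio 1.00, 0.55 to 1.45). It lay at the threshold, and when the median ratio of all genes was set to 0, or with TMM scaling, 0 of the 22 were counted. None was 2-fold lower. The next 4 in size were named after their values were seen. The clamp loader subunit RFC4 had 13444 reads in MIP/5FU and 13003 in MIP101 (0.92, 0.88 to 0.95), and the meiotic MutS gene MSH4 had 74 in MIP/5FU and 85 in MIP101 (0.67, 0.20 to 1.13). POLD4, a small subunit of DNA polymerase delta, had 520 reads in MIP/5FU and 1473 in MIP101 (-0.63, -0.78 to -0.49), and SETD2, a histone methyltransferase, had 10907 in MIP/5FU and 28390 in MIP101 (-0.51, -0.54 to -0.48).

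**Figure D2:**
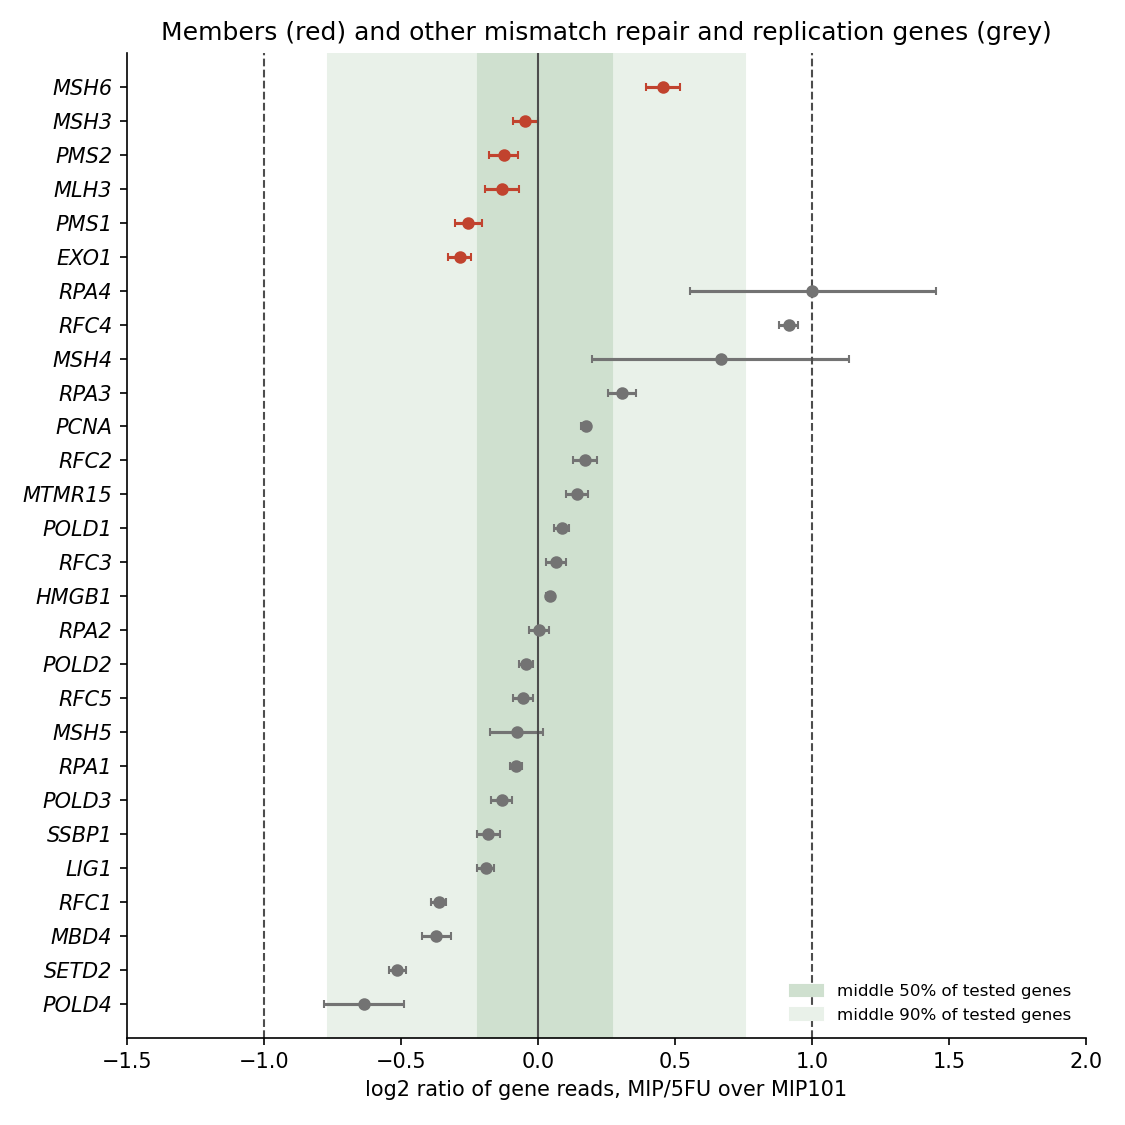
Log2 ratio of gene reads, MIP/5FU over MIP101 (x axis), for the 6 members (red) and the 22 genes of the pathway list (grey), with exact 95% intervals for counting error. Shading marks the middle 50% and 90% of tested genes (-0.22 to 0.27 and -0.77 to 0.76), and dashed lines mark 2-fold. All 6 members lie inside the wider band, with MSH6 at 0.46 and EXO1 at -0.29.

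Because MIP/5FU is a clone, the genes next to each member on its chromosome were set beside it. MSH6 lay above 35 of the 40 nearest tested protein-coding genes, whose median log2 ratio was 0.13. PMS2 lay below 38 of its 40 neighbours, whose median was 0.31, with 35 of them above 0. Its neighbours include PMS2CL, a copy of PMS2 whose reads are uncertain, as described below. By junction reads the ratio of PMS2 itself was 0.024, with an interval that includes 0. Of all 15382 tested genes, 8262 had ratios above 0 and 7120 below. Around MLH3 the median was -0.34, with 34 of 40 neighbours below 0, and around EXO1 it was -0.43, with 31 of 40 below 0. MLH3 and EXO1 were less low than those medians, by 0.21 and 0.14 on the log2 scale. The medians around MSH3 and PMS1 were 0.08 and -0.01. Whether DNA copy number differed there was not tested.

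**Figure D3:**
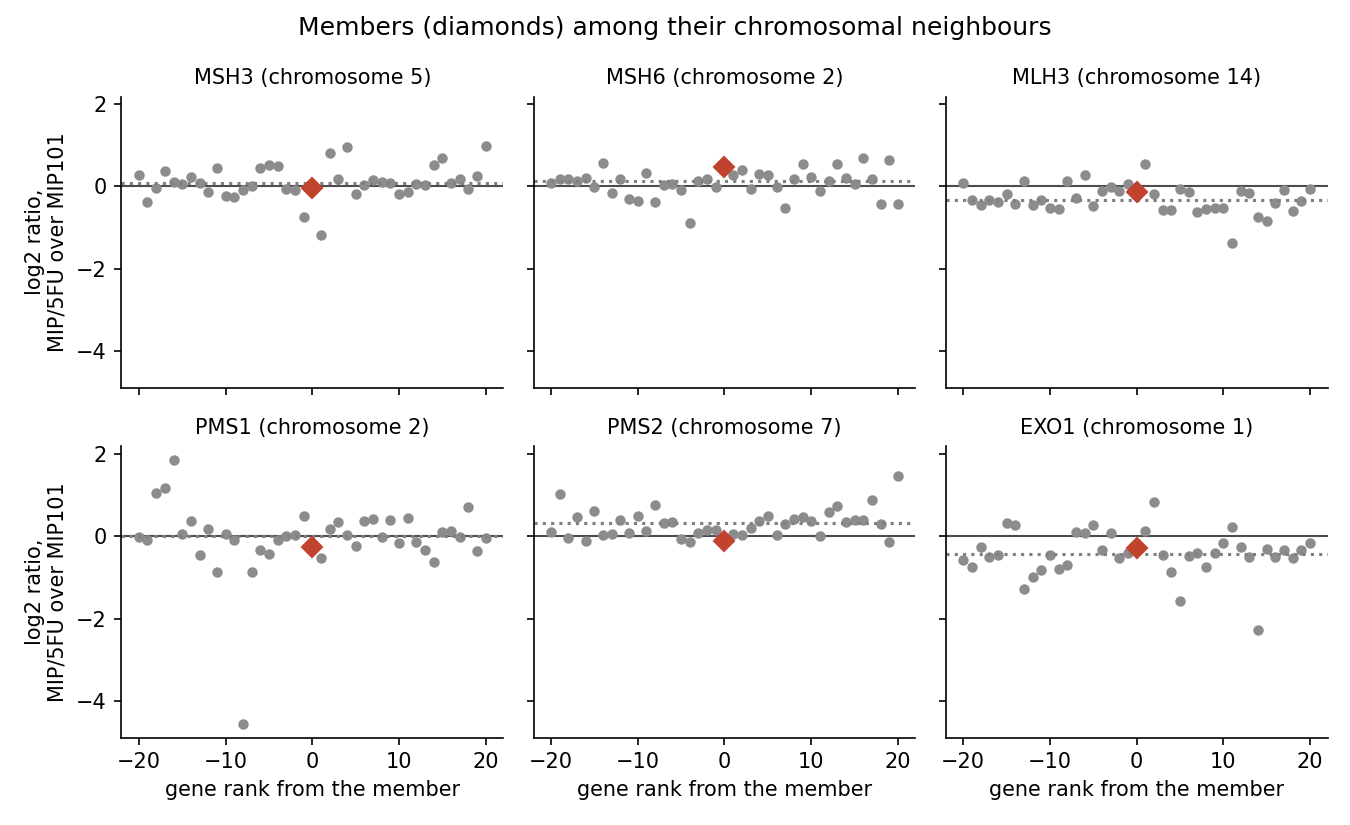
Log2 ratio, MIP/5FU over MIP101 (y axis), of each member (diamond) and the 20 nearest tested protein-coding genes on each side (grey points), by gene rank along the chromosome (x axis). The dotted line is the neighbours' median, which is -0.43 around EXO1, -0.34 around MLH3 and 0.31 around PMS2.

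The gene that adjoins PMS1 head to head did not share its ratio. ORMDL1, a regulator of sphingolipid synthesis, starts 12 bases away from PMS1 in the hg18 annotation and runs on the opposite strand. It had 5763 reads in MIP/5FU and 7539 in MIP101, a log2 ratio of 0.48 (0.43 to 0.53). The ratio of PMS1 was lower than that of ORMDL1 by a log2 difference of -0.73 (-0.80 to -0.66), and their start regions lie within the PMS1 window shown above. PMS2 is likewise head to head with JTV1, 144 bases away, a scaffold gene of the aminoacyl-tRNA synthetase complex. JTV1 had 10829 reads in MIP/5FU and 19035 in MIP101 (0.05, 0.02 to 0.09), and PMS2 minus JTV1 was -0.18 (-0.24 to -0.12).

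MSH6 overlaps FBXO11, an F-box gene on the opposite strand, which had 9003 reads in MIP/5FU and 13491 in MIP101 (0.28, 0.25 to 0.32). Their annotated exons share 26 bases at the end of MSH6 exon 10, and the library protocol marks no strand, so reads there cannot be assigned. The span of FBXO11 (hg18 chr2:47869965-47986436) also covers MSH6 from exon 2 to exon 10, introns included. Intron reads there cannot be assigned to 1 of the 2 genes. MSH6 minus FBXO11 was 0.17 (0.10 to 0.25). The other nearest genes within 200 kb ranged widely. Beside MSH3, RASGRF2 had 667 reads in MIP/5FU and 2750 in MIP101 (-1.18, -1.30 to -1.05), and FAM151B had 102 in MIP/5FU and 315 in MIP101 (-0.75, -1.10 to -0.43). Beside MLH3, ACYP1 had a log2 ratio of 0.53 (0.41 to 0.64) and EIF2B2 a log2 ratio of 0.05 (0.00 to 0.10). The log2 ratio of C7orf28A beside PMS2 was 0.15 (0.04 to 0.25), and that of MAP1LC3C beside EXO1 was 0.12 (-0.22 to 0.45).

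The study was built to find alternative expression, so each part of a gene was also set against its gene. For an exon region, junction, exon boundary or transcript, the splicing index is its log2 ratio less the log2 ratio of the whole gene. Its exact interval leaves 0.1% outside, and a feature was counted at an absolute index of 1 or more with 0 beyond that interval. Exon regions and transcripts carry coverage and no read counts, so their values below are read equivalents, coverage divided by the mean bases per read. Of the 107 exon regions of the 6 genes, 102 had at least 50 read equivalents and 0 were counted. Of all 139703 exon regions tested, 0.275% were counted. Of 759 listed junctions, 79 had the 20 reads required, and 0 were counted, against 0.156% of 107276 junctions tested. Likewise 0 of 18 tested boundaries and 0 of 5 tested transcripts were counted, against 0.864% of all boundaries and 0.69% of all transcripts tested. Within the genes, 101 of the 102 exon regions lay within 1.5-fold of their gene's ratio.

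**Figure D4:**
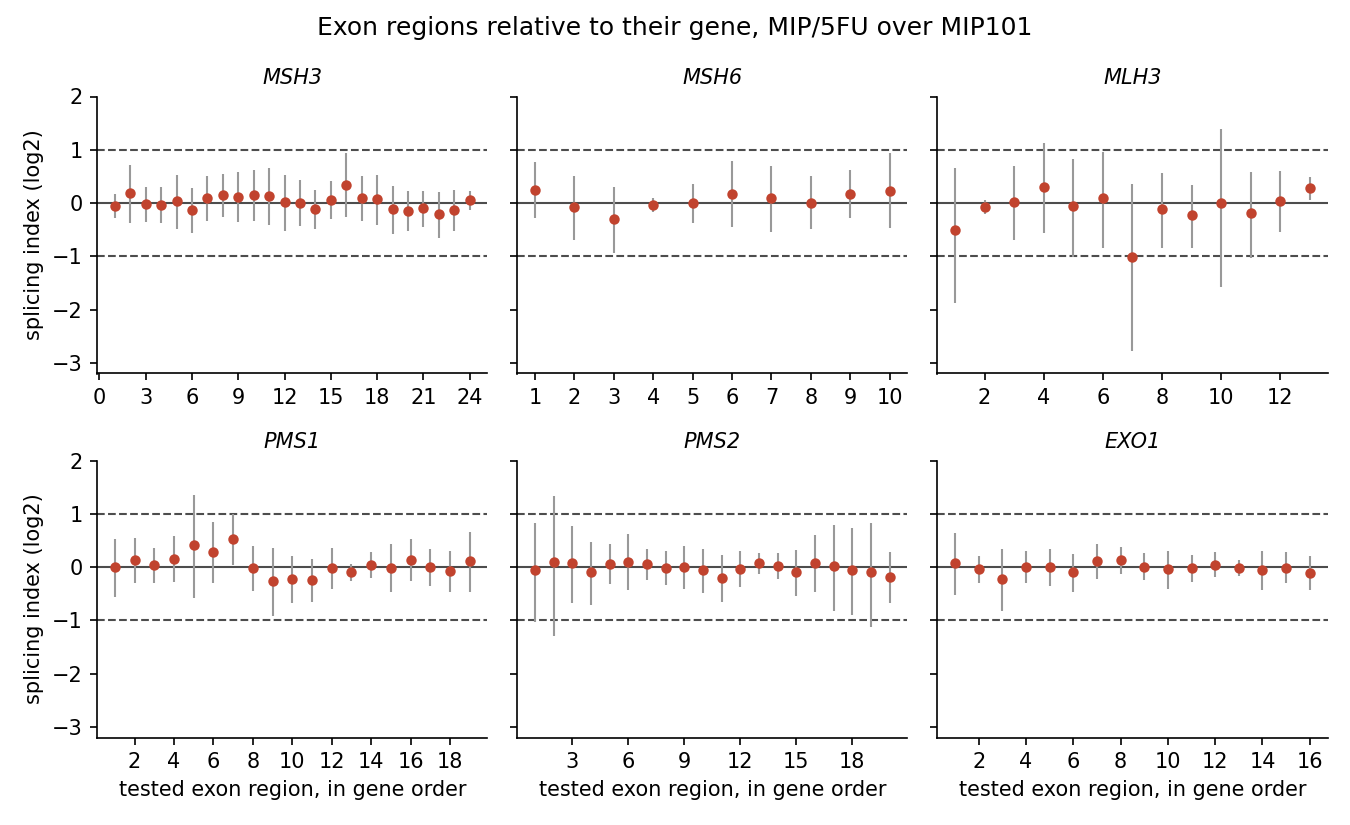
Splicing index (log2, y axis) of each tested exon region in gene order (x axis), MIP/5FU over MIP101, with exact intervals that leave 0.1% outside and dashed lines at an index of 1 and -1. The lowest point is exon 7 of MLH3 at -1.01, whose interval reaches 0.35.

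The largest index in each gene was small or poorly covered. In MSH6 it was exon 3 with 100.4 read equivalents in MIP/5FU and 165.0 in MIP101 (index -0.30, -0.93 to 0.30), and in MSH3 exon 16 with 108.5 in MIP/5FU and 161.3 in MIP101 (0.34, -0.27 to 0.94). In PMS2 it was exon 9 with 173.5 in MIP/5FU and 398.6 in MIP101 (-0.21, -0.65 to 0.22), and in EXO1 exon 3 with 94.6 in MIP/5FU and 246.6 in MIP101 (-0.22, -0.83 to 0.34). In MLH3 it was exon 7, with 13.1 in MIP/5FU and 54.3 in MIP101 (-1.01, -2.77 to 0.35). Each of these 5 intervals includes 0. In PMS1 a 552-base stretch at the end of the longest form of exon 4 (hg18 chr2:190379474-190380025), which holds no coding base, had 173.6 read equivalents in MIP/5FU and 262.3 in MIP101 (0.53, 0.05 to 0.99). It belongs to the short transcript ENST00000409985, whose own features had 215.3 in MIP/5FU and 330.4 in MIP101 (0.51, 0.08 to 0.92). The boundary that enters this stretch had 170 reads in MIP/5FU and 253 in MIP101 (0.55, 0.06 to 1.02). Set against the median of the gene's tested boundaries, the index of that boundary was -0.06 and its interval included 0. These 3 features overlap and are 1 observation. Its normalized coverage per base was 24.5 in MIP/5FU and 20.6 in MIP101, beside 142 in MIP/5FU and 154 in MIP101 in the first 103 bases of the same exon, all coding. Coverage between these parts was uneven, in a detail chosen after its values were seen. The 669 bases after the first part had 4.85 in MIP/5FU and 4.41 in MIP101, and the 79 bases just before the final stretch had 110 in MIP/5FU and 109 in MIP101. In MLH3 the 3438-base last exon region had 775.8 read equivalents in MIP/5FU and 1279.0 in MIP101 (0.28, 0.06 to 0.49). Intervals that exclude 0 at any size were found for 3.18% of all exon regions tested, beside 2 of the members' 102. For boundaries that share was 1.65%, beside 1 of 18, and for transcripts 6.03%, beside 1 of 5.

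By junctions, the largest index was the MLH3 junction of exons 7 and 8, with 4 reads in MIP/5FU and 27 in MIP101 (-1.61, -5.37 to 0.53). In PMS1 it was exons 1 and 2 with 10 in MIP/5FU and 44 in MIP101 (-0.96, -3.03 to 0.57), and in MSH3 exons 14 and 15 with 53 in MIP/5FU and 62 in MIP101 (0.69, -0.24 to 1.60). In MSH6 it was exons 2 and 3 with 12 in MIP/5FU and 25 in MIP101 (-0.62, -2.57 to 1.03), and in EXO1 exons 1 and 2 with 7 in MIP/5FU and 24 in MIP101 (-0.55, -3.18 to 1.34). In PMS2 it was exons 4 and 5, with 46 reads in MIP/5FU and 65 in MIP101 (0.50, -0.47 to 1.42). All 6 intervals include 0.

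In 4 of the 6 genes, 7 junctions that pass over an annotated exon or exon part had at least 10 reads, and the counting intervals of the lines overlapped at each. The skipping share is the reads of such a junction over those reads plus its inclusion reads. Inclusion reads are the mean over both sides of the summed reads of junctions from the same donor, or to the same acceptor, that skip fewer exons. For MLH3 the 2 skipped exons are given in full, 5′ to 3′ from the GENCODE release 29 transcript ENST00000355774, since both lie in coding sequence. Exon 5 is 105 bases (hg18 chr14:74576367-74576471) or 35 codons, and exon 7 is 72 bases (hg18 chr14:74569875-74569946) or 24 codons, with the same lengths in the transcript, so that skipping either keeps the reading frame. Capitals mark the skipped exon within 10 bases of each neighbouring exon.
MLH3 exon 5: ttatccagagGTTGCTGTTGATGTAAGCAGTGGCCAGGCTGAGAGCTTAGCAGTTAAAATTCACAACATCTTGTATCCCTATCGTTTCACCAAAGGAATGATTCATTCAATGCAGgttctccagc
MLH3 exon 7: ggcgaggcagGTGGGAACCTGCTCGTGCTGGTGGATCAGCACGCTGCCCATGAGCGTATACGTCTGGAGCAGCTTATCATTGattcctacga
The junctions that leave them out are given as the 62 bases around the join, with the downstream exon in capitals.
MLH3 exon 4 to exon 6: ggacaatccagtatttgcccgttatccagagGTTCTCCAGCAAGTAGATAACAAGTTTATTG
MLH3 exon 6 to exon 8: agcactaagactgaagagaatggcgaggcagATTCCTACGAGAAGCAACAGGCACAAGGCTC

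The MLH3 junction from exon 4 to exon 6 had 4 reads in MIP/5FU and 24 in MIP101. Its skipping share was 29.6% in MIP/5FU (95% interval 8.73 to 59.7) and 56.5% in MIP101 (40.4 to 71.6). The junction from exon 6 to exon 8 had 5 reads in MIP/5FU and 10 in MIP101, a share of 52.6% in MIP/5FU (19.9 to 83.8) and 33.9% in MIP101 (17.6 to 53.6). The shares of the 2 exons leaned opposite ways between the lines, and the intervals of the lines overlapped for each. The form without exon 7 is the annotated transcript ENST00000238662, whereas the form without exon 5 is in no Ensembl transcript and is listed with 1 mRNA and 1 EST.

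For 3 of the 7 junctions the join is the annotated one in several transcripts. EXO1 exon 3 carries no coding base and is in 1 Ensembl transcript, whereas 3 transcripts join exon 2 to exon 4. The junction from exon 2 to exon 4 had 43 reads in MIP/5FU and 68 in MIP101, a share of 74.1% in MIP/5FU (61.0 to 84.7) and 59.1% in MIP101 (49.6 to 68.2). The 2 inclusion junctions were unequal. Exons 2 and 3 were joined by 1 read in MIP/5FU and 10 in MIP101, and exons 3 and 4 by 29 in MIP/5FU and 84 in MIP101. The EXO1 junction from exon 15 to exon 17, also in 3 transcripts, had 51 reads in MIP/5FU and 148 in MIP101. No junction into or out of exon 16, a stretch of 4 bases, was listed, so inclusion reads could not be counted. Its share of 100% in both lines was therefore fixed in advance and does not measure skipping. The PMS1 junction from exon 4 to exon 5, in 4 transcripts, had 48 reads in MIP/5FU and 71 in MIP101, a share of 95.05% in MIP/5FU (85.0 to 99.2) and 97.9% in MIP101 (91.4 to 99.85). That PMS1 share is inflated in both lines, because inclusion reads on the exon 5 side were 0 in each library and still entered the mean. Normalized coverage of the passed-over parts was uneven, as given above, and reached 110 in MIP/5FU and 109 in MIP101. An EXO1 junction from exon 2 to exon 12 that no Ensembl transcript, mRNA or EST holds had 10 reads in MIP/5FU and 17 in MIP101, or 17.2% in MIP/5FU (8.59 to 29.4) and 14.5% in MIP101 (8.70 to 22.2). For PMS2 the junction from exon 3 to exon 5 had 6 reads in MIP/5FU and 4 in MIP101, a share of 20.7% in MIP/5FU (7.99 to 39.7) and 11.0% in MIP101 (3.07 to 25.7). That PMS2 share is inflated in both lines, because 1 of its 2 inclusion junctions, exons 3 and 4, had 0 reads in each library and still entered the mean. Skipping junctions held few reads in the MutS-type genes, 9 of 981 junction reads in MIP/5FU and 12 of 1757 in MIP101 for MSH3, and 6 of 199 in MIP/5FU and 4 of 264 in MIP101 for MSH6.

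**Figure D5:**
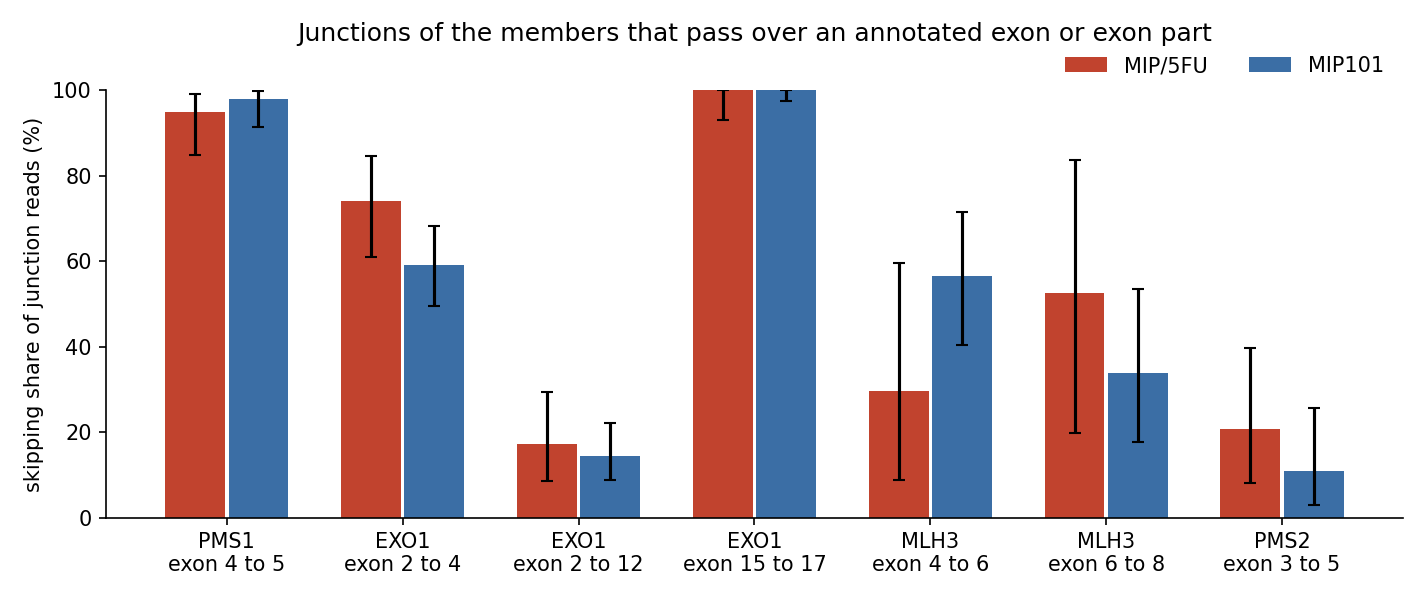
Skipping share of junction reads in percent (y axis) at the 7 junctions of PMS1, EXO1, MLH3 and PMS2 that pass over an annotated exon or exon part (x axis) in MIP/5FU (red, left) and MIP101 (blue, right), with exact 95% binomial intervals. The bar of MIP/5FU is lower than that of MIP101 at MLH3 exon 4 to 6 (29.6% in MIP/5FU, 56.5% in MIP101) and higher at EXO1 exon 2 to 4 (74.1% in MIP/5FU, 59.1% in MIP101), and the intervals overlap at all 7.

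PMS2 values carry a limit of their own, because the gene has near-identical copies on chromosome 7. Of its 15 annotated junctions between successive exons, 5 had 0 reads in both libraries, between exons 2 and 3, 3 and 4, 11 and 12, 12 and 13, and 14 and 15. In the other 5 genes each such annotated junction had reads. No source used here says how reads that match several copies were counted, so the reads of PMS2 and its copies are uncertain. PMS2CL, a copy in the same chromosome arm, had 2823 reads in MIP/5FU and 4089 in MIP101 (0.33, 0.26 to 0.40). PMS2L3 had 780 reads in MIP/5FU and 1267 in MIP101 (0.17), and PMS2L8 had 855 in MIP/5FU and 1479 in MIP101 (0.08). PMS2L2 had 6 reads in MIP/5FU and 0 in MIP101, too few to compare.

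Reads that run over an exon's edge into the next intron or region were set against junction reads. Per 100 junction reads, PMS1 had 72.6 such boundary reads in MIP/5FU and 56.5 in MIP101, and MSH6 had 40.2 in MIP/5FU and 40.9 in MIP101. PMS2 had 42.3 in MIP/5FU and 46.1 in MIP101, and MLH3 had 10.4 in MIP/5FU and 8.89 in MIP101. EXO1 had 6.41 in MIP/5FU and 4.50 in MIP101, and MSH3 had 2.45 in MIP/5FU and 2.50 in MIP101. The median over 9366 genes was 10.3 in MIP/5FU and 9.06 in MIP101. Some of these boundaries lie inside longer exon forms that an Ensembl transcript spans, with 351 such reads in MIP/5FU and 586 in MIP101 for PMS1, and 139 in MIP/5FU and 275 in MIP101 for PMS2. The other 4 genes had 0. Without such boundaries, a choice made after seeing the data, PMS1 had 6.75 per 100 junction reads in MIP/5FU and 5.25 in MIP101, and PMS2 had 14.96 in MIP/5FU and 17.3 in MIP101. The median over the same genes was then 6.46 in MIP/5FU and 5.57 in MIP101. On that count MSH3 and EXO1 lay below the median, and MLH3 above it, in both lines, although EXO1 in MIP/5FU was close to it (6.41 beside 6.46). PMS1 lay above it in MIP/5FU and below it in MIP101. MSH6 had values above it, but FBXO11 spans MSH6 exons 2 to 10 on the opposite strand and the library marks no strand. Reads at those edges need not come from MSH6, so no place against the median is given for MSH6. PMS2 was above the median too, but mostly through 1 boundary inside its exon 1. That boundary held 57 of the remaining 76 reads in MIP/5FU and 114 of 166 in MIP101. It is listed with no Ensembl transcript, yet annotated parts of exon 1 adjoin on both of its sides. Those reads need not come from an intron, so no place against the median is given for PMS2.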

How the data were processed

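Polyadenylated RNA of each line was made into cDNA with random hexamers and amplified by 10 cycles of PCR, per the labels. The authors placed reads on gene features of Ensembl release 53 (per the file headers and names) on build hg18, per the submitters' processing notes. The sources used here name no aligner. Unscaled counts of reads stand in the deposited gene, junction and boundary tables. Every deposited table has coverage, which the authors summed in bases, and a scaled coverage for each base. The authors scaled coverage of genes and exon regions by 1.95 in MIP/5FU and 1.07 in MIP101. The exon region and transcript tables have no counts, although the design had assumed them, so read equivalents were computed from 39.8 bases per read in MIP/5FU and 40.4 in MIP101.

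Ratios are log2 of shares of gene reads after adding 0.5 reads, with exact conditional 95% intervals (Python 3.11.15, scipy 1.17.1). A gene was counted at 2-fold with at least 100 reads over both libraries. The splicing index takes the gene's ratio as known, needs at least 200 gene reads over both libraries and 10 in each, and uses 50 read equivalents or 20 reads as the minimum. Scaling alternatives used edgeR 4.0.16 for TMM factors only. The gene rule and its interval were checked on simulated counts with counting error only and planted 4-fold changes. That check held no PCR copies and no differences between cultures, so it says nothing about either. The members and lists were chosen with earlier results of these data known. All members were named; of their features, the exon region and the junction with the largest index per gene; of the pathway list, the genes past 2-fold; and the nearest tested protein-coding genes, here only within 200 kb, a limit set after the data were seen, like the motifs searched. Skipping junctions were described with at least 10 reads. Some genes of this pathway are not reported here. Promoter sequences come from RefSeq tables and exon sequences from GENCODE; hg18 sequence was not used here.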

Additional observations from a re-analysis of the deposited data

How the results depend on the processing

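With 1 library per line, no result has a replicate check, and differences between members can include any property of a single culture. Setting the median ratio of all genes to 0, TMM factors, the authors' normalized coverage and the median of exon regions each kept the sign of all 6 ratios, and no member reached 1.5-fold. Junction reads gave 0.10 for MSH3, 0.53 for MSH6, -0.29 for MLH3, -0.16 for PMS1 and 0.024 for PMS2 on the log2 scale, so the signs of MSH3 and PMS2 turned; the cause was not tested. Over all genes, 389 were 2-fold higher in MIP/5FU and 475 lower. Without a minimum of reads, 968 were higher and 858 lower; with 500 reads, 220 and 299; at 1.5-fold, 1334 and 1252; and at 4-fold, 48 and 135. Of the pathway list, 0 genes were counted after median centring and 0 with TMM factors, and its median was -0.05 under both. With 10 genes per side, the median around MLH3 was -0.24 and that around PMS2 was 0.25. Boundary reads per 100 junction reads of PMS1 and PMS2 fell below their counting intervals without boundaries that a transcript spans, an alternative chosen after seeing the data. The boundary of PMS1 exon 4 had an index of -0.06 when set against the median of the gene's tested boundaries. No paired analysis was possible because each line has 1 library. For skipping shares, depth is the limit: the junctions hold 4 to 148 reads in a library.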
